A study of Mus musculus and Rattus norvegicus with 96 samples.

Results

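Complexes II to V of the mitochondrial respiratory chain are protein assemblies of the inner membrane. Succinate dehydrogenase (complex II) feeds electrons from the citric acid cycle into ubiquinone, the cytochrome bc1 complex (complex III) passes them to cytochrome c, cytochrome c oxidase (complex IV) hands them to oxygen, and ATP synthase (complex V) uses the proton gradient built by complexes I, III and IV to make ATP. Liver cells are rich in mitochondria, and most subunits of these complexes are encoded by nuclear genes with short mRNAs, while a few core subunits are encoded by mitochondrial DNA. Complex II is encoded entirely in the nucleus and is also an enzyme of the citric acid cycle.

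The genes described here are the rows of a mouse liver count table of 24543 genes whose symbols begin with Uqcr or Atp5, name Sdha to Sdhd, or begin with Cox followed by a digit of the nuclear subunits and a letter, and whose mean over 48 libraries was at least 1 CPM (counts scaled to a common library total). Of 47 matching symbols 40 met the minimum: 4 of complex II, 8 of complex III, 11 of complex IV and 17 of complex V. Atp5s, with a mean of 3.70 CPM, was the member nearest the minimum from above, and Cox7a1, with 0.289 CPM, was the nearest from below. The 7 symbols under the minimum, Cox4i2, Cox6a2, Cox6b2, Cox7a1, Cox7b2, Cox8b and Cox8c, are isoforms of complex IV subunits known from lung, muscle, testis and other tissues, and Cox7b2 and Cox8c had 0 counts in all 48 libraries. Mitochondrially encoded subunits are not part of the rule, and 0 of 26 mitochondrial gene symbols looked for were among the genes tested.

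The livers came from 12 young adult male B6C3F1 mice, of which 6 drank water with 600 ppm phenobarbital (PB, an inducer of liver drug metabolism) over 7 days and 6 drank plain vehicle water (Con). Each liver was divided into 4 preparations: snap frozen (FR), fixed directly in 10% formalin for 18 to 24 h and embedded in paraffin (FFPE), frozen and then fixed in formalin and embedded (FR>FFPE), or frozen and then fixed in 70% ethanol and embedded (FR>OH). The 8 groups of preparation and treatment thus held 6 libraries each, and all 4 libraries of a mouse share 1 animal. Frozen tissue was extracted with RNAzol and the FFPE samples with an FFPE kit, so that extraction cannot be told apart from preservation in comparisons with FR.

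Library totals ranged from 4952797 to 13702672 estimated counts, being deepest in FR and shallowest in FFPE, where 1 CPM in the smallest library is 4.95 counts. The share of sequenced reads that lay on genes, as implied by the authors' CPM scaling, was 47.9% ± 1.22 (SD, n = 6) in FR Con against 24.6% ± 1.92 in FFPE Con, with FR>OH Con and FR>FFPE Con between them at 37.4% and 36.9%. Levels here are CPM of the total over the 13370 genes that passed the authors' expression filter, and all 40 members passed it. Cyp2b10, the drug-metabolism gene that PB induces, was at most 2.45 CPM in any Con library and at least 1078 CPM in any PB library.

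For orientation, the stretch of 120 bases just upstream of the annotated start is shown for the members with the most negative and the most positive FFPE vs. FR difference in each complex, where RefSeq (GRCm38.p6) holds the promoter (Uqcrb of complex III is not in that table). Each is written 5′ to 3′ on the gene's strand, and capitals mark matches to the motifs of 2 activators of respiratory genes, NRF1 and the ETS factor GABPA (CCGGAAG or its reverse complement). The YY1 motif was also searched, and all 3 were searched on both strands.
Sdhb, chr4:140961151-140961270, plus strand: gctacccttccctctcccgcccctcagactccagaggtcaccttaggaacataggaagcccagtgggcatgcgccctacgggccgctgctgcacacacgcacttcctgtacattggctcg
Sdhd, chr9:50603850-50603969, minus strand: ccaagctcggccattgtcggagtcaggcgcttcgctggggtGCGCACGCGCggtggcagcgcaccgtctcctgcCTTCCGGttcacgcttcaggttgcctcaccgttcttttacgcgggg
Uqcrc1, chr9:108936528-108936647, plus strand: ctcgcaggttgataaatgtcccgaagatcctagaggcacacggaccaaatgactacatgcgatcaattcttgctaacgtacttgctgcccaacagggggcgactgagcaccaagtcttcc
Cox7c, chr13:86046796-86046915, minus strand: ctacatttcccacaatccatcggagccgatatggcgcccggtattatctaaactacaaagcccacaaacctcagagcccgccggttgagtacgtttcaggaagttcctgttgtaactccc
Cox7a2l, chr17:83514334-83514453, minus strand: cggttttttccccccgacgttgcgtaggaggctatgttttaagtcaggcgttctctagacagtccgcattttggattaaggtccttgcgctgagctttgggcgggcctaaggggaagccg
Atp5k, chr5:108434400-108434519, minus strand: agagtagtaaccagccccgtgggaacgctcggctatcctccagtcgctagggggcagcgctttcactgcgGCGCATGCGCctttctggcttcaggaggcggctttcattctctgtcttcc
Atp5sl (RefSeq name Dmac2), chr7:25619294-25619413, plus strand: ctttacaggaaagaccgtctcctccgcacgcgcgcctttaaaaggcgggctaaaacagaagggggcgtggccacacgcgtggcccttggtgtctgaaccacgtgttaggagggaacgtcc

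In windows from 250 bases before to 50 after the start, 20 of the 33 members with a RefSeq promoter held at least 1 of the 3 motifs. Counted over promoters, that was 56.8% of 37 member promoters against 13.6% of all 32851. The NRF1 motif was in 27.0% against 4.60%, the ETS motif in 32.4% against 8.86%, and the YY1 motif in 10.8% against 1.40%. Median GC content of the member promoters was 57% against 52.7% for all, and both the NRF1 and the ETS motif are rich in G and C. Within the printed windows, Sdhd had an NRF1 match beginning 79 bases and an ETS match beginning 46 bases before the start, and Atp5k an NRF1 match 50 bases before it. Both genes thus carried the NRF1 motif. Atp5k was the lowest member of complex V after direct fixation, and Sdhd the highest of complex II. A part of the motif in these differences was not tested. Promoters of Sdhc, Uqcrb, Uqcrc2, Uqcrq, Cox4i1, Cox6c and Atp5a1 were not in the table.

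Direct formalin fixation was compared with freezing to ask how far the transcript profile of fixed liver departs from that of frozen liver. After direct fixation the summed level of the 40 members was lower in every treatment group, with Cox7c and Atp5k, small membrane subunits of complexes IV and V, furthest down. The summed level was 5446 ± 423 CPM in FR Con against 3532 ± 286 CPM in FFPE Con (SD, n = 6 each), and 5883 ± 864 CPM in FR PB against 3634 ± 495 CPM in FFPE PB. The 6 FFPE libraries lay wholly below the 6 FR libraries within each treatment: FFPE Con reached 3985 CPM at most, whereas FR Con began at 5039.9 CPM. In bulk tissue such as this, fewer cells of a type and less RNA per cell cannot be told apart.

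Differences below are log2 fold changes from edgeR's quasi-likelihood test with Benjamini-Hochberg adjustment over 13370 genes, averaged over Con and PB, with their SE. The median of all 13370 genes was itself 0.32 in FFPE vs. FR with the library size used here, 0.04 with TMM and -0.63 with all sequenced reads as the library size. The split of genes called lower and higher with a fold change of at least 2 was accordingly 171 and 1273, 485 and 572, and 2942 and 72. Changes are therefore also given relative to the median of all genes. A change of library size moves all genes nearly alike, so this measure hardly depends on it by construction.

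In FFPE vs. FR, 11 of 40 members were called lower, meaning at least a 2-fold difference with an adjusted p below 0.05 in Con as well as in PB, and 0 were called higher. Of all genes tested, 1.28% were called lower. The 11 were Cox7c, Cox6b1, Cox7a2, Cox4i1, Cox7b and Cox5b of complex IV and Atp5k, Atp5e, Atp5j2, Atp5l and Atp5g3 of complex V. With TMM library sizes 23 members were called, with all sequenced reads 35, and with the L number in the library titles as a term 22. With that term 233 of all genes were called lower. The L number is read here as the lane, which the labels do not say. In Con it was 1 for every FFPE library and 2 for every FR library. Numbers 1 and 2 could thus be compared only among FFPE PB libraries, with 75C and 80B at 2 and the others at 1. The term therefore cannot be told apart from differences between these mice. With genes above 1% of the counts left out of the library size, 9 were called, against 139 of all genes, Atp5g3 and Cox5b being lost.

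By adjusted p alone in both treatments, 32 members were lower, against 11.7% of all genes, and 2 were higher, Atp5d and Atp5sl, against 39.5% of all genes. Of these 2, Atp5d (log2 fold change 0.27) was below 0 with TMM library sizes and, like Atp5sl, with all sequenced reads. Sdhc, Sdhd, Cox7a2l, Cox8a, Atp5j and Atp5s did not pass in both treatments. The median member stood at -1.22 relative to the median of all genes, and 39 of 40 members, all but Atp5sl, lay below that median. A change of library size could hardly alter this count, since it moves all genes nearly alike. With limma 37 members lay below, and Atp5d and Atp5s joined Atp5sl. In 34 members FFPE was lower than FR in 12 of 12 mice, and in 2 it was higher in every mouse, with the library size used here. This was not counted for all genes.

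**Figure D1:**
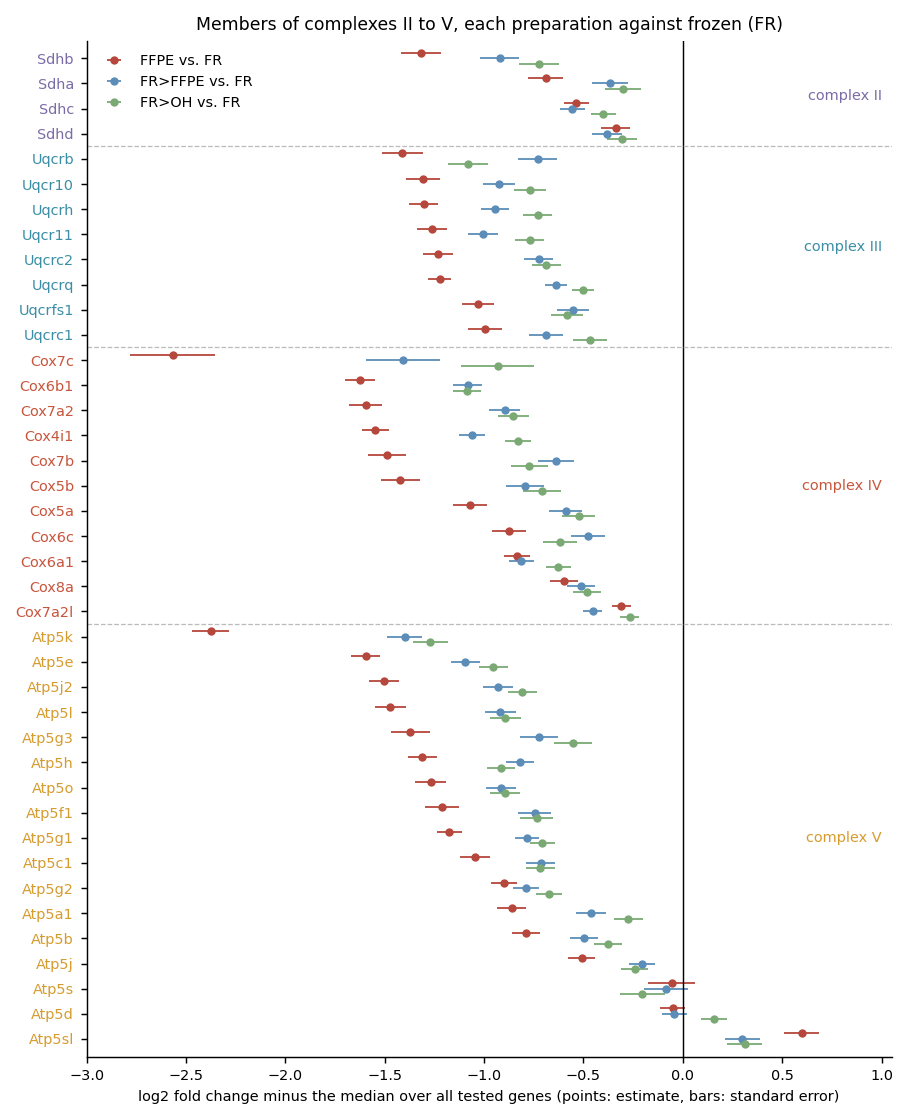
Log2 fold change of each of the 40 members against FR, minus the median of all 13370 genes, for the embedded preparations, with members grouped by complex and bars of 1 SE. In FFPE the members of complexes III, IV and V lie mostly near -1 or lower, Cox7c and Atp5k lie lowest, and Atp5sl is the only member above 0 on this relative scale.

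Complex II had the smallest shift. Its median was -0.61 relative to all genes (4 members), with 0 called and 2 of 4 lower by adjusted p with the library size used here. Sdhb was called lower with TMM, and Sdha, Sdhb and Sdhc with all sequenced reads. Sdhb, the iron-sulfur subunit, was at 113, 124 and 148 CPM in FR Con against 51.3, 60.3 and 80.8 CPM in FFPE Con (lowest, median and highest of 6), without overlap. Its log2 fold change was -0.99 (SE 0.10, adjusted p = 6.62e-12). Sdha, the flavoprotein that oxidizes succinate, stood at -0.37.

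The membrane anchors of complex II that hold the heme and the quinone site were near their frozen levels with the library size used here. Relative to all genes Sdhd stood at -0.34 and Sdhc at -0.54. Sdhd was at 149, 152 and 167 CPM in FR Con against 131, 159 and 188 CPM in FFPE Con, so that the FFPE range enclosed the FR range. Its log2 fold change was -0.02 (SE 0.07, adjusted p = 0.862), and it passed the test as lower with TMM (-0.30) and with all sequenced reads (-0.97). Sdhc, the other anchor, had a log2 fold change of -0.21. It passed as lower with TMM, all sequenced reads, limma, DESeq2 and the mouse as a block. With all sequenced reads and with limma it was also called with the fold change of 2.

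The 8 complex III genes of the rule moved as a block. Cytochrome c1 (Cyc1), a complex III subunit outside the rule, did not move with them. It stood at -0.35 relative to all genes, with a log2 fold change of -0.02. All 8 members were lower by adjusted p, and 0 reached the fold change of 2 in both treatments with the library size used here. With TMM, Uqcr10, Uqcr11, Uqcrb, Uqcrc2, Uqcrh and Uqcrq were called lower, and with all sequenced reads all 8 members. At these settings 485 and 2942 of all genes were called lower. The median of the complex was -1.25 relative to all genes. The SD over members was 0.14, against 0.42 in complex II, 0.62 in complex IV and 0.70 in complex V. Uqcrb, a small subunit of the complex, had the most negative value, -1.09 (SE 0.10, adjusted p = 4.46e-13). It was at 46.1, 55.7 and 64.2 CPM in FR Con against 21.9, 30.8 and 35.3 CPM in FFPE Con, without overlap.

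Uqcrc1, a core protein, had the least negative value of the 8 complex III members, -0.67 (SE 0.09, adjusted p = 2.76e-09). It was at 122, 139 and 169.7 CPM in FR Con against 81.2, 89.6 and 96.3 CPM in FFPE Con, again without overlap. Core proteins and the Rieske protein (3 genes) had a median of -1.03 relative to all genes, and the 5 small subunits one of -1.30.

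Complex IV had the lowest median, -1.42 relative to all genes. Cox7c (chr13:86044798-86046795, minus strand) encodes a small transmembrane subunit. It was at 11.8, 15.1 and 20.3 CPM in FR Con against 0.395, 3.71 and 6.90 CPM in FFPE Con, and at 13.9, 18.4 and 19.6 CPM in FR PB against 1.16, 3.15 and 5.66 CPM in FFPE PB. The groups did not overlap, and the log2 fold change was -2.24 (SE 0.22, adjusted p = 8.85e-13), with the largest SE of the members named. Its lowest library held 2 counts and its highest 260, so its FFPE values carry the most counting error of the members.

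Cox7a2l, a factor that joins complexes III and IV into supercomplexes rather than a subunit in the strict sense, did not pass the test in FFPE. It was at 81.7, 83.3 and 84.98 CPM in FR Con against 79.2, 86.2 and 106 CPM in FFPE Con, where the FFPE range enclosed the FR range. Its log2 fold change of 0.01 (SE 0.05, adjusted p = 0.807) became negative with TMM (-0.27) and with all sequenced reads (-0.94). Its paralog Cox7a2, the liver-type subunit, was at 78.1, 84.7 and 98.7 CPM in FR Con against 29.9, 35.7 and 44.6 CPM in FFPE Con, without overlap, and its log2 fold change was -1.27 (SE 0.08, adjusted p = 2.71e-18).

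Among the other complex IV subunits, Cox6b1, on the side of the complex that meets cytochrome c, was at 119, 132 and 160.3 CPM in FR Con against 47.2, 56.6 and 64.2 CPM in FFPE Con. Cox4i1, a regulatory subunit, was at 275, 282 and 330.4 CPM and 105, 125 and 139 CPM. Neither overlapped between the preparations, and the log2 fold changes were -1.30 (SE 0.07, adjusted p = 4.14e-20) and -1.22 (SE 0.07, adjusted p = 7.04e-21). Cox8a and Cox6a1, the ubiquitous isoforms of their subunits, moved less. Cox8a was at 105, 106 and 136 CPM in FR Con against 87.5, 95.9 and 115 CPM in FFPE Con, Cox6a1 at 114, 124 and 166 CPM and 88.9, 91.5 and 110.4 CPM. Their values were -0.28 (SE 0.07, adjusted p = 6.17e-04) and -0.51 (SE 0.06, adjusted p = 1.28e-09), and only Cox6a1 passed the test in both treatments, with ranges of Cox8a overlapping. The tissue-restricted partners Cox4i2, Cox6a2, Cox6b2 and Cox8b had at most 4, 1, 4 and 2 counts in any library, so no comparison of isoforms could be made.

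Complex V had a median of -1.18 relative to all genes, with 5 of 17 members called. All 3 small membrane subunits, Atp5k (subunit e), Atp5j2 (f) and Atp5l (g), known for joining ATP synthase into dimers, were called lower, with a median of -1.50. Atp5k (chr5:108433253-108434378, minus strand) was at 60.6, 68.6 and 82.4 CPM in FR Con against 11.3, 18.9 and 20.0 CPM in FFPE Con, and at 64.7, 86.6 and 112 CPM in FR PB against 17.5, 19.7 and 26.5 CPM in FFPE PB. The groups were far apart, and the log2 fold change was -2.05 (SE 0.09, adjusted p = 4.24e-23).

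The F1 head and central stalk (5 genes) had a median of -0.86 and showed both directions by adjusted p. Atp5e, the epsilon subunit, was at 85.8, 87.1 and 93.5 CPM in FR Con against 32.8, 38.1 and 42.6 CPM in FFPE Con, without overlap, and its log2 fold change was -1.27 (SE 0.07, adjusted p = 1.15e-19). The catalytic beta subunit Atp5b and the alpha subunit Atp5a1 stood at -0.47 and -0.54, and the delta subunit Atp5d at 0.27, or -0.05 relative to all genes. The peripheral stalk, which holds the head still (Atp5f1, Atp5h, Atp5j and Atp5o), had a median of -1.24, and Atp5j did not pass in both treatments.

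The c ring, which turns as protons pass, is built from 1 protein made by 3 genes. In FR Con, Atp5g3 was at 133, 143 and 167 CPM, Atp5g1 at 74.7, 79.1 and 96.7 CPM and Atp5g2 at 38.3, 41.1 and 46.6 CPM. In FFPE Con the same genes were at 61.8, 69.5 and 90.6, 39.9, 47.5 and 56.1 and 26.6, 29.8 and 31.0 CPM. All 3 were below FR without overlap, and their log2 fold changes were -1.05 (SE 0.10, adjusted p = 5.01e-13), -0.85 (SE 0.06, adjusted p = 2.91e-16) and -0.58 (SE 0.07, adjusted p = 1.89e-10).

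Atp5sl (chr7:25619414-25625550, plus strand), which shares its name with ATP synthase but is known as an assembly factor, was the only member above the median of all genes by edgeR. It was at 15.0, 16.3 and 20.4 CPM in FR Con against 27.2, 31.8 and 37.6 CPM in FFPE Con, and at 11.7, 14.1 and 17.3 CPM in FR PB against 19.0, 26.6 and 32.1 CPM in FFPE PB. The FFPE ranges lay above the FR ranges in both treatments. Its log2 fold change was 0.92 (SE 0.09, adjusted p = 1.15e-12) here and -0.03 with all sequenced reads as library size. Without Atp5s and Atp5sl the median of complex V was -1.21 relative to all genes (15 members).

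**Figure D2:**
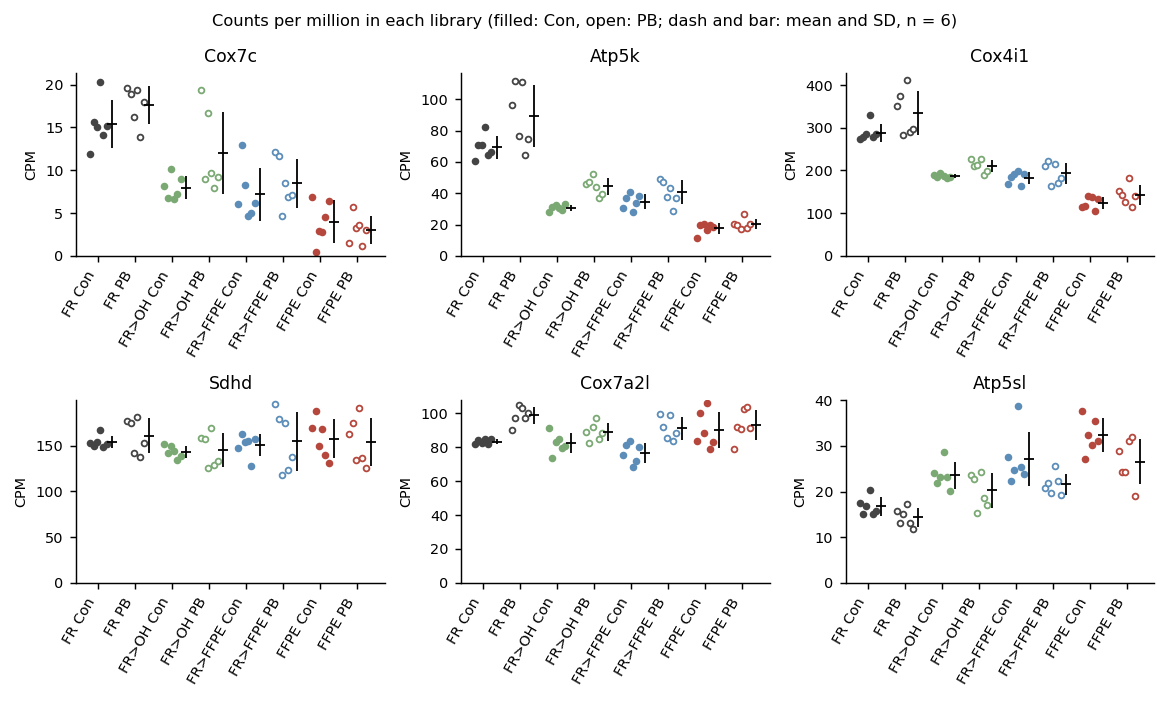
Level in CPM of Cox7c, Atp5k, Cox4i1, Sdhd, Cox7a2l and Atp5sl in every library of the 8 groups (filled points Con, open points PB), with a dash and bar for the mean and SD of 6 libraries. Cox7c and Atp5k step down from FR to FFPE, whereas Atp5sl steps up on this scale (its log2 fold change is 0.92 here and -0.03 with all sequenced reads as library size).

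The complexes were compared with each other within each mouse, as the median log2 difference of their members between a preparation and the FR library of the same mouse, minus the all-gene median. In FFPE this was -0.60 ± 0.05 for complex II, -1.20 ± 0.09 for complex III, -1.29 ± 0.15 for complex IV and -1.09 ± 0.09 for complex V (SD, n = 12 mice). Complexes III, IV and V were each below complex II in 12 of 12 mice. Complex IV differed from complex III by -0.10 ± 0.14, and was the lower in 9 of 12 mice. Complex V lay above complex III by 0.10 ± 0.08 and above complex IV by 0.20 ± 0.14, with 1 of 12 mice going the other way in each. These differences are descriptions of 12 mice and carry no test.

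The same order of complex II against the rest was seen when tissue was frozen first. In FR>FFPE, complexes III, IV and V were below complex II in 12 of 12 mice each, by -0.28 ± 0.10, -0.27 ± 0.09 and -0.24 ± 0.07. In FR>OH they were below it in 12, 12 and 11 mice. Complexes III, IV and V lay closer to each other in these preparations. In FR>OH complex V was above complexes III and IV by 0.03 ± 0.07 and 0.05 ± 0.07, with 2 and 3 mice going the other way. In FR>FFPE these differences were 0.04 ± 0.07 and 0.03 ± 0.07, with 5 mice going the other way in each. Complex IV minus complex III was -0.02 ± 0.08 in FR>OH and 0.01 ± 0.07 in FR>FFPE. Complex I was taken as 36 nuclear Ndufa, Ndufb, Ndufc, Ndufs and Ndufv genes. That set includes Ndufa4, now placed in complex IV. The set had a median of -1.25 relative to all genes in FFPE vs. FR, close to complexes III and V. In it 14 genes were called lower, and 36 of 36 lay below the median of all genes. FR libraries are shared by all these comparisons.

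**Figure D3:**
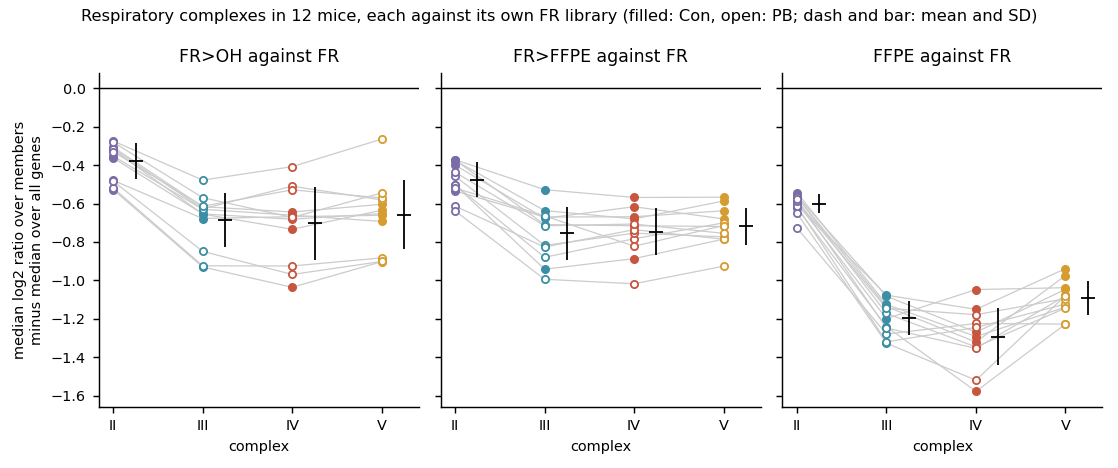
Median log2 difference from FR of the members of each complex in each of 12 mice, minus the all-gene median, in panels for FR>OH, FR>FFPE and FFPE (filled points Con, open points PB), with grey lines joining the values of 1 mouse and a dash and bar for the mean and SD. In FFPE complex II sits near -0.60 and the other complexes between -0.94 and -1.58.

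Tissue frozen before fixation in formalin showed a smaller shift from FR. In FR>FFPE vs. FR, 1 of 40 members was called lower, Cox7c, against 0.0224% of all genes, and 0 were called higher. By adjusted p alone 25 were lower and 2, Atp5d and Atp5sl, were higher, against 4.94% and 38.7% of all genes. With TMM, all sequenced reads, limma or DESeq2 the lower members became 36 and the higher ones 0, and with the mouse as a block 31 were lower. The share of all genes past adjusted p was not counted at these settings, so a gain in the members cannot be told from a general shift. The median member stood at -0.73 relative to all genes. Cox7c was at 4.70, 6.12 and 13.0 CPM in FR>FFPE Con, with a log2 fold change of -1.07 (SE 0.19, adjusted p = 2.56e-06), and was no longer called without the FR>FFPE Con library of mouse 21C, the shallowest of its group, at -1.03. Atp5k followed at -1.06 and Atp5e at -0.76. With TMM 3 members were called, against 16 of all genes, and with all sequenced reads 6, against 59 of all genes. The median of all genes was 0.34 here, 0.03 with TMM and -0.04 with all sequenced reads.

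Freezing before ethanol fixation gave a like picture, from the same FR libraries. In FR>OH vs. FR, 1 of 40 members was called lower, Atp5k, against 0.0524% of all genes, and by adjusted p alone 25 were lower and 2 higher, Atp5d and Atp5sl, against 6.02% and 25.8% of all genes. The lower members became 35 with TMM and DESeq2, 36 with limma and 37 with all sequenced reads, where Atp5d was no longer higher in any of them, and Atp5sl was no longer higher with limma or with all sequenced reads. Atp5k was at 27.9, 30.8 and 32.9 CPM in FR>OH Con, and its log2 fold change was -1.09 (SE 0.09, adjusted p = 2.79e-14). With the mouse as a block 0 members were called and 32 were lower by adjusted p alone, the value of Atp5k being -1.08 there. At none of these other settings was the share of all genes past adjusted p counted. Cox6b1 and Uqcrb followed at -0.90 each, and the median member stood at -0.70 relative to all genes. The median of all genes was 0.18 here, -0.004 with TMM and -0.15 with all sequenced reads. FR>OH and FR>FFPE libraries carry other L numbers in their titles than most FR libraries, so that this number and preparation cannot be told apart in these comparisons.

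Direct formalin fixation and formalin fixation after freezing were compared with each other to leave FR out. FFPE libraries carry the L numbers 1 and 2 and FR>FFPE libraries 3 and 4, so that this number and preparation cannot be told apart here. The share of reads on genes also differed, 24.6% in FFPE Con against 36.9% in FR>FFPE Con. In FFPE vs. FR>FFPE, 0 of 40 members were called with the fold change. By adjusted p alone, 23 were lower and 0 higher, against 5.7% and 2.48% of all genes, and with the mouse as a block 31 were lower and 1, Atp5sl, higher. The median member stood at -0.39 relative to all genes, and 35 of 40 members, all but Sdhc, Sdhd, Cox7a2l, Atp5s and Atp5sl, lay below the median of all genes. Cox7c (-1.18, SE 0.23) and Atp5k (-0.99, SE 0.10) were again lowest. Cox7c did not pass in both treatments here but did with the block, and Atp5k was called when mouse 21C was left out. Per mouse, complex II stood at -0.15 ± 0.09, complex III at -0.44 ± 0.15, complex IV at -0.48 ± 0.08 and complex V at -0.37 ± 0.09 (SD, n = 12 mice), each below 0 in 12 of 12 mice.

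The fixatives were compared after freezing, in FR>FFPE vs. FR>OH. Within each treatment these preparations also carry different L numbers. By edgeR 0 members were called with the fold change, and by adjusted p alone 0 were lower, against 0.194% of all genes, and 1 was higher, against 2.4%. That member was Uqcrb, with a log2 fold change of 0.51 (SE 0.10, adjusted p = 2.98e-04), and the call was lost with TMM, with all sequenced reads, with genes above 1% of the counts left out of the library size, with no filter, with limma and with DESeq2. With the mouse as a block, Atp5h, Cox6c and Cox7b were also higher, 4 members in all, where the share of all genes was not counted.

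Levels were compared between genes per kilobase (kb) of a gene's shortest GENCODE transcript, among those that GENCODE pairs with a RefSeq entry. In FR Con, Atp5b was highest at 393 ± 26.2 CPM per kb, next to Cox4i1 at 387 ± 28.0, a difference within their spread, and Atp5s was lowest at 2.14. In FFPE Con, Atp5b remained first at 286 ± 29.9 CPM per kb. Atp5k went from rank 10 to rank 29 among the 40 members and Atp5e from rank 6 to rank 16, while Sdhd went from rank 18 to rank 7, Atp5d from rank 25 to rank 8 and Cox7a2l from rank 32 to rank 17. The transcript length of Atp5g1 is uncertain, because its GENCODE transcripts range from 596 to 4715 nt, and so is its rank.

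Members have short transcripts, taken as the same shortest GENCODE one of each gene. Their median length was 791.5 nt against 2669 nt for 13154 tested genes with such a transcript, and complex II was the longest, at 2065.5 nt, against 955, 645 and 838 nt for complexes III, IV and V. Other genes under 750 nt (601 genes) had a median of -0.56 in FFPE vs. FR relative to all genes, and the 20 members of that length one of -1.31. Between 750 and 1500 nt the medians were -0.40 (2039 genes) and -1.04 (12 members), and between 1500 and 3000 nt -0.05 (4881 genes) and -0.99 (7 members). Short transcripts were thus lower in general, and members stood below other genes in each of these length classes.

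**Figure D4:**
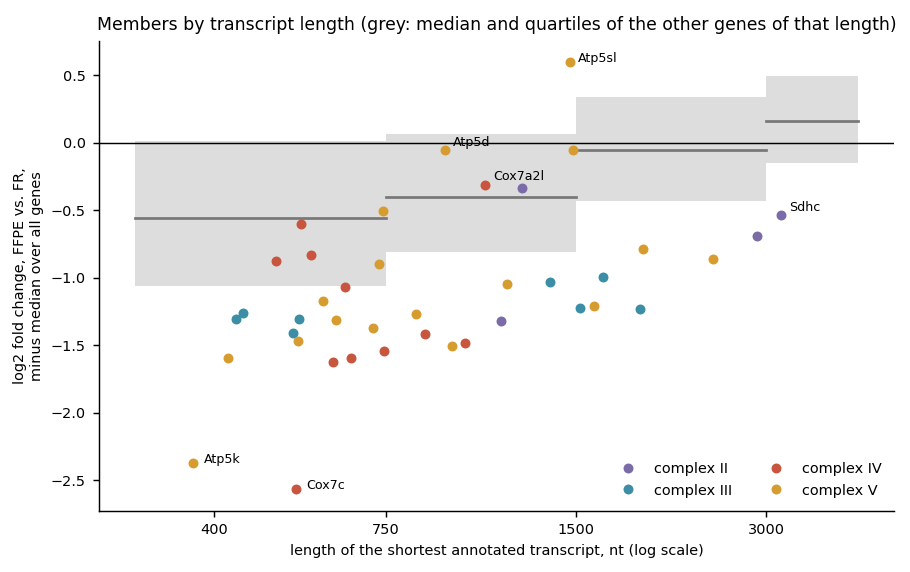
Log2 fold change of FFPE vs. FR relative to the median of all genes against the length of the shortest GENCODE transcript in nt (log axis), with members coloured by complex and the median and quartiles of other genes per length class in grey. Members lie below the class medians at most lengths, -1.31 against -0.56 under 750 nt.

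Members with a promoter motif had a median FFPE vs. FR difference of -1.27 relative to all genes (20 members), and those with a promoter but no motif one of -1.18 (13 members), with ranges that overlapped over most of their length.

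Markers of liver cell types were read beside these results. The summed level of 8 hepatocyte markers was 82999.5 to 116792 CPM in FR Con against 51149.8 to 61981.3 CPM in FFPE Con, and 63682.7 to 102990 CPM in FR PB against 44337.4 to 55991.5 CPM in FFPE PB. In FFPE vs. FR 3 of the 8 were called lower, against 1.28% of all genes, with a median of -0.76 relative to all genes. Red cell markers had a median of -1.68 (3 of 5 called lower), Kupffer cell markers of -1.13 (0 of 6), endothelial markers of -0.46 (0 of 6), and stellate and vessel wall markers of -0.11 (0 of 7 lower and 1 higher). Biliary markers had a median of 0.35 with 1 of 5 called lower, while their summed level had a median of 89.4 CPM in FR Con against 49.2 CPM in FFPE Con, with overlapping ranges. Lymphocyte markers summed to at most 2.58 CPM in any library, and striated muscle markers to at most 1.41 CPM. The part of cell markers, of the share of reads on genes, of extraction and of the L number in the lower levels of the members was not tested.

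Other genes of the pathway were read from lists, whose counts by adjusted p stand against 11.7% lower and 39.5% higher of all genes. In FFPE vs. FR, nuclear subunits and carriers outside the rule (6 genes) stood at a median of -1.32 relative to all genes. By adjusted p 5 were lower and 0 higher. They ranged from Ndufa4 at a log2 fold change of -1.52 to cytochrome c1 (Cyc1) of complex III at -0.02. Ndufa4, now placed in complex IV, is also in the complex I set above. Assembly factors (34 of 36 tested) stood at -0.43, 12 lower and 4 higher, from the copper chaperone Cox17 at -1.44 to Sco2, another copper-delivery factor, at 1.06. Citric acid cycle genes (13) stood at -0.57, 6 lower and 1 higher, from fumarase (Fh1) at -0.90 to Dlst, a subunit of the 2-oxoglutarate dehydrogenase complex, at 0.34. Transcriptional regulators of mitochondrial genes (12) stood at 0.11, 0 lower and 6 higher, the latter near the share of all genes, from Tfb1m at -0.18 to the coactivator Ppargc1b at 1.499. Positive fold changes in these lists depend on the library size, since the median of all genes moves from 0.32 to -0.63.

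Phenobarbital was compared with vehicle within each preparation. Cox7a2l was higher with PB in FR, at 81.7, 83.3 and 84.98 CPM in Con and 90.4, 98.8 and 105 CPM in PB, without overlap, and its log2 fold change was 0.25 (SE 0.07, adjusted p = 0.0118). It was the 1 member past adjusted p in FR, against 5.86% of all genes, and 0 were lower, against 2.6%. In FR>OH 4 members were higher, against 8.43% of all genes, and 0 lower, against 3.77%: Atp5k (0.53, SE 0.13), Atp5j2 (0.40, SE 0.11), Atp5l (0.37, SE 0.11) and Atp5g2 (0.30, SE 0.09). Atp5k was at 27.9, 30.8 and 32.9 CPM in FR>OH Con and 36.7, 45.1 and 52.5 CPM in FR>OH PB, without overlap. The 4 of 40 in FR>OH, near that share with the library size used here, became 14 with all sequenced reads and 10 with limma. The share of all genes past adjusted p was not counted at those settings. The median of all genes moved from 0.02 to 0.12 with each of them. No member reached a fold change of 2 in any preparation.

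In FR>FFPE Cox7a2l was again the 1 member higher with PB, at 0.25 (SE 0.07, adjusted p = 0.0137), against 6.24% of all genes, and 0 were lower, against 0.987%. This call was lost with TMM, with all sequenced reads as library size, with genes above 1% of the counts left out of it, with limma and with DESeq2. In FFPE 0 members were higher and 0 lower by edgeR, against 4.64% and 1.98% of all genes, and DESeq2 and limma also gave 0. At an unadjusted p under 0.05, 2 members passed in FFPE, against 2567 of 13370 genes. Unadjusted, 9, 17 and 5 members passed in FR, FR>OH and FR>FFPE, against 2805, 3361 and 2513 of 13370 genes.

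Most member values were on the higher side with PB in frozen tissue. Relative to all genes the median member stood at 0.15 in FR, 0.18 in FR>OH, 0.04 in FR>FFPE and 0.05 in FFPE, and 38 of 40 members were above 0 in FR with the library size used here. By complex the medians in FR were 0.09 for II, 0.15 for III, 0.20 for IV and 0.12 for V, all small beside the preservation differences. Atp5sl had negative values in every preparation, -0.23, -0.22, -0.32 and -0.28 in FR, FR>OH, FR>FFPE and FFPE, none past adjusted p here, although it passed as lower in FR>FFPE with TMM and with DESeq2. The difference of the PB effect from that in FR was tested directly. By edgeR 0 members passed in FR>OH, FR>FFPE and FFPE, against 0% of all genes in each. At an unadjusted p under 0.05, 0, 0 and 1 passed, against 305, 288 and 463 of 13370 genes, that 1 being Cox7a2l in FFPE. TMM library sizes also gave 0 in each.

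**Figure D5:**
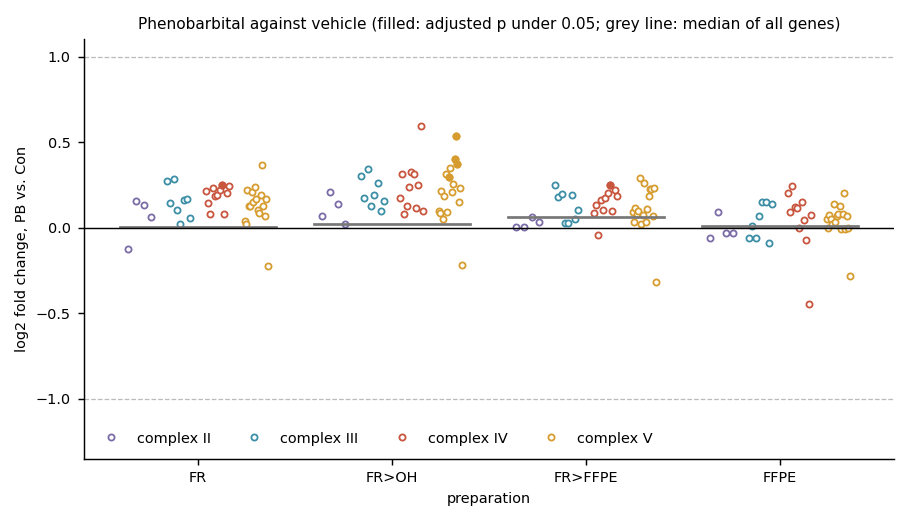
Log2 fold change of PB vs. Con for each of the 40 members in the 4 preparations, coloured by complex, with filled points for members past adjusted p, a grey line at the median of all genes and dashed lines at a 2-fold change. All points lie between the dashed lines, and the filled ones are 1 in FR, 4 in FR>OH, 1 in FR>FFPE and 0 in FFPE.

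Mice differed in the summed level of the members, and PB mice fell into similar orders in each preparation. The PB mice 18B, 18D and 20D had the 3 highest sums of the PB mice in all 4 preparations. In FR these were 6418, 6607 and 6928 CPM, and the other PB mice lay between 5006 and 5315 CPM. Con mice in FR lay between 5039.9 and 6198 CPM. The coefficient of variation between PB mice was 14.7% in FR, 11.3% in FR>OH, 16.6% in FR>FFPE and 13.6% in FFPE, and between Con mice 7.77%, 5.33%, 7.04% and 8.10%. Among Con mice, 21C had the highest sum in FR (6198 CPM) and in FFPE (3985 CPM) and ranked 3 in FR>OH and FR>FFPE, where 8D and 8C had the highest, so that the order of Con mice changed. With 21C left out of all preparations, 10 members were called in FFPE vs. FR, Atp5g3 being lost. With PB in FR 4 were then higher by adjusted p, Atp5k, Cox6a1 and Cox8a being added, where the share of all genes was not counted.

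Some members share sequence with processed pseudogenes, so that reads may be split between copies. RefSeq names pseudogenes after 7 members (4 for Atp5k, 2 each for Atp5l and Uqcrh, and 1 each for Cox7c, Cox5b, Atp5c1 and Atp5f1), and 0 of these had a row in the count table. Values of those 7 members are uncertain to that extent.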

How the data were processed

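Per the authors, liver RNA was made into rRNA-depleted, stranded libraries (Ribo-Zero Gold, with shortened fragmentation for FFPE), demultiplexed with CASAVA 1.8.2 and aligned with STAR 2.5.3a to GRCm38. The deposited estimated counts are expectation-maximization counts per RefSeq gene from Partek Flow, and 95.1% were whole within 0.005. The authors also deposited log2 CPM values for 13370 genes, scaled to all sequenced reads; these entered only the limma alternative. Libraries of other assays (48) were not used here.

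Counts were rounded, and genes kept at a geometric mean above 1 (offset 1e-04), which gave 13370 genes. One edgeR 4.0.16 quasi-likelihood fit (R 4.3.3) over 8 group means gave all contrasts, with the total over kept genes as library size and Benjamini-Hochberg adjustment. The threshold was 0.05, and a call also needed a fold change of at least 2. The test was checked on simulated counts, drawn independently for each library and with no effect of the mouse. That check does not cover libraries that share a mouse, nor the choice of library size. Alternatives used limma 3.58.1, DESeq2 1.42.0, TMM, other filters, a lane term (the L number in the titles, assumed to be the lane), a mouse block and left-out libraries. Labels give each mouse a code shared by its 4 libraries. Residuals of 72 of 72 same-mouse pairs correlated above 0.1 over 7850 genes (median 0.69, different mice -0.13). No 2 libraries were identical.

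Members, gene lists and tests were chosen with earlier results of these data known. Given in full were the lowest and highest member of each complex in FFPE vs. FR, the 3 lowest in FR>FFPE and FR>OH, the c subunit genes, the complex IV isoforms, and members past the test with PB. Counts on pseudogene copies were not separated. Intervals for counting error are not given, since replicate spread was used throughout.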

Additional observations from a re-analysis of the deposited data

Results flagged for a closer look

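In 9 of 136 combinations of a named member and a group, the highest library stood apart from the other 5 by more than Dixon's 95% limit for 6 samples. Chance flags about 1 in 20 such combinations, and the members of a library are not independent. In 8 of the 9 the library was that of Con mouse 21C. In FR Con this mouse had 167.0 CPM of Sdhd (next highest 154), 330.4 CPM of Cox4i1 (next 285), 166 CPM of Cox6a1 (next 128) and 136 CPM of Cox8a (next 115). In FFPE Con it had 110.4 CPM of Cox6a1 (next 94.7), and in FR>OH Con 107 CPM of Cox8a (next 95.2). In FR>FFPE Con, where its library was the shallowest of the 6, it had 139.0 CPM of Uqcrc1 (next 113) and 38.7 CPM of Atp5sl (next 27.6). The ninth was PB mouse 20D, with 26.5 CPM of Atp5k in FFPE (next 20.6). Without the 4 libraries of mouse 21C, a choice made after seeing the data, 10 members were called lower in FFPE vs. FR.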

How the results depend on the processing

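Of 527 values of 17 named members under the alternatives, 497 kept their direction and side of the threshold, 6 were no longer past it, 18 newly passed it and 6 reversed. The reversals were Cox7a2l in FFPE vs. FR, from 0.01 to -0.27 with TMM, -0.94 with all sequenced reads, -0.28 with DESeq2 and -0.95 with limma, which used the deposited log2 CPM, and Atp5sl, from 0.92 to -0.027 with all sequenced reads and -0.039 with limma. Here the library size itself moves the median of all genes.

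The 11 members called in FFPE vs. FR became 23 with TMM, 35 with all sequenced reads, 22 with a lane term, 35 with limma and 23 with DESeq2. They fell to 9 with genes above 1% of counts left out of the library size. By adjusted p alone 32 were lower and 2 higher, against 11.7% and 39.5% of all genes. The 171 of all genes called lower became 485, 2942, 233, 2985 and 501 from TMM to DESeq2, and 139 with genes above 1% left out. The lane term cannot be told apart from differences between PB mice. In the same order of settings without lane, the 1 called in FR>FFPE vs. FR became 3, 6, 6 and 3, and 2 with genes above 1% of counts left out of the library size. By adjusted p alone 25 were lower and 2 higher in that comparison, against 4.94% and 38.7% of all genes. There the 3 of all genes called lower became 16 with TMM and DESeq2, 59 with all sequenced reads and limma, and 4 with genes above 1% left out. The 1 in FR>OH vs. FR became 3, 4, 4, 3 and 27, where the 7 of all genes called lower became 32, 76, 91 and 35 from TMM to DESeq2. In FFPE vs. FR>FFPE 0 became 16 with all sequenced reads, 17 with limma and 23 by adjusted p alone. There the 2 of all genes called lower became 454 with all sequenced reads and 508 with limma. In FR>FFPE vs. FR>OH 0 became 1 by adjusted p alone. For PB, 0 became 1, 4 and 1 by adjusted p alone in FR, FR>OH and FR>FFPE. Leaving out the FR>FFPE Con library of mouse 21C, or all 4 of its libraries, gave 0 in FR>FFPE vs. FR (Cox7c lost) and 1 in FFPE vs. FR>FFPE (Atp5k gained).

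With the replicate block, the mouse, the count in FR>OH vs. FR went from 1 to 0 and that in FFPE vs. FR from 11 to 10, and the other counts with the fold change did not move. By adjusted p alone the block moved the lower members from 32 to 34 in FFPE vs. FR (Cox8a and Sdhc gained). It also raised them in FR>FFPE vs. FR, FR>OH vs. FR and FFPE vs. FR>FFPE. With the block, the share of all genes past adjusted p was not counted. Apart from what library size and the call rule fix by construction, the cause was not tested. Depth limits Cox7c most, at 2 counts in its lowest library.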

Other observations

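Complex I, taken as the same 36 genes including Ndufa4, followed the members with PB. In FR>OH 8 of 36 genes were higher by adjusted p and 0 lower, against 8.43% and 3.77% of all genes. The median there was 0.22 relative to all genes. In FR, FR>FFPE and FFPE 0 passed in either direction, with medians of 0.17, 0.04 and 0.12. Citric acid cycle genes showed the same preparation first, with 5 of 13 higher in FR>OH, 0 in FR, 2 in FR>FFPE and 2 in FFPE, against 8.43%, 5.86%, 6.24% and 4.64% of all genes. The 12 regulators stood on the other side, with medians of -0.14 in FR, -0.17 in FR>OH, -0.04 in FR>FFPE and -0.14 in FFPE and 1 lower by adjusted p, in FR>OH. Differences between preparations in these lists were not tested beyond single genes.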
